A study of Bos taurus with 129 samples.

Results

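This report concerns 10 genes that encode amino acid transporters of the uterus and the conceptus, followed through 4 bovine tissues at day 16. The methods count days from timed artificial insemination for the pregnant group, and do not state an insemination of non-pregnant cows. The genes were SLC7A1, SLC7A2, SLC7A5, SLC7A7, SLC7A8, SLC3A2, SLC1A1, SLC1A4, SLC1A5 and SLC38A2, and they were taken by name and not by their values. In experiment 2 (E2) each of the 10 had 1 row among 35158 gene rows. In experiment 1 (E1) 9 had a row under their own symbol among 24616 gene rows, and the row described as SLC7A5 carried the symbol LAT. That row was matched by its identifier after the table had been seen, so E1 values of SLC7A5 are given apart and counts of genes in E1 are over the other 9.

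An elongating conceptus has no placental blood supply and lives on what the uterine glands and epithelium release into the lumen, including amino acids. Cationic amino acids such as arginine enter cells through SLC7A1 (CAT1) and SLC7A2 (CAT2). SLC7A5 (LAT1) and SLC7A8 (LAT2) exchange large neutral amino acids such as leucine, SLC7A7 (y+LAT1) exchanges cationic against neutral amino acids, and each of these light chains needs the heavy chain SLC3A2 (CD98) to reach the cell surface. SLC1A1 (EAAT3) takes up glutamate and aspartate, SLC1A4 (ASCT1) and SLC1A5 (ASCT2) carry small neutral amino acids and, for ASCT2, glutamine, and SLC38A2 (SNAT2) is the sodium-coupled system A carrier whose mRNA is known to increase in cells short of amino acids. In sheep, arginine and leucine accumulate in the uterine lumen in the weeks around elongation, and both act on growth of trophoblast through mTORC1.

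Libraries came from lactating multiparous Holstein cows after Ovsynch and insemination with semen of the same sire, as the methods state for the E2 conceptuses. Pregnancies were classed by the look of the recovered conceptus as undergoing embryo mortality (EM: pink, red or opaque, restricted in elongation, or both) or as normal (N: translucent and elongated), and a non-pregnant group (NP) gave maternal tissue. E2 (75 bp single-end reads) held conceptus (6 EM, 9 N), endometrium, corpus luteum (CL) and peripheral blood mononuclear cells (PBMC), each maternal tissue with 6 EM, 9 N and 7 NP libraries. E1 (100 bp paired-end reads) held conceptus (4 EM, 8 N), endometrium (4 EM, 8 N, 7 NP) and PBMC (3 EM, 7 N, 5 NP). A whole conceptus or a piece of tissue is a mixture of cells, so fewer cells of a type and less RNA per cell cannot be told apart.

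Total counts per library were 10532188 to 24482117 in E2. In E1 they were 4648644 to 14932407 outside the EM conceptuses and 106785 to 6402817 in the 4 EM conceptuses, where precision was accordingly lower. Of these, the EM libraries S4 and S5 held so few reads that a transporter was often counted 0 to 71 times. Marker genes of the labelled tissue were at high levels in most libraries, with the following exceptions. Every E2 EM conceptus summed lower over the trophoblast markers than the N conceptuses, at 115575 to 180385 CPM (counts scaled to a common library size). The EM sums were 1084, 1493, 4078, 7063, 17791 and 65908 CPM in S49, S58, S53, S51, S61 and S55. S61 also had 4900 CPM of luteal markers, against 55.6 to 225 CPM in the other EM libraries. The library labelled CL NP S109 summed to 458 CPM over 8 luteal markers, against 36455 to 44773 CPM in the other NP libraries, and the libraries labelled CL EM S121 and S112 summed to 6325 and 16252 CPM. The library labelled endometrium E1 NP S31 had 11606 CPM of epithelial and 2424 CPM of trophoblast markers. The library labelled endometrium E2 EM S83 had 2988 CPM of leukocyte markers. The library labelled PBMC E1 NP S47 had a TMM scaling factor of 0.02995 and stood apart in 5 of the transporters. Levels below are CPM scaled with TMM factors, differences are log2 fold changes with their standard errors (SE), and adjusted p-values come from edgeR's quasi-likelihood test with Benjamini-Hochberg adjustment over all genes tested, called at 0.05.

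In E2 conceptuses the light chains and the heavy chain of the leucine exchangers were lower in EM than in N, whereas the cationic carrier SLC7A1, the small neutral carrier SLC1A4 and the system A carrier SLC38A2 were higher. A difference passed the test for 8 of the 10, with 3 higher and 5 lower in EM. Among all 15642 genes tested 67.1% were called, 5517 higher and 4978 lower, so a call was the usual outcome for any gene in this comparison. The median log2 fold change of the 10 was -0.75, beside 0.07 over all genes.

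**Figure D1:**
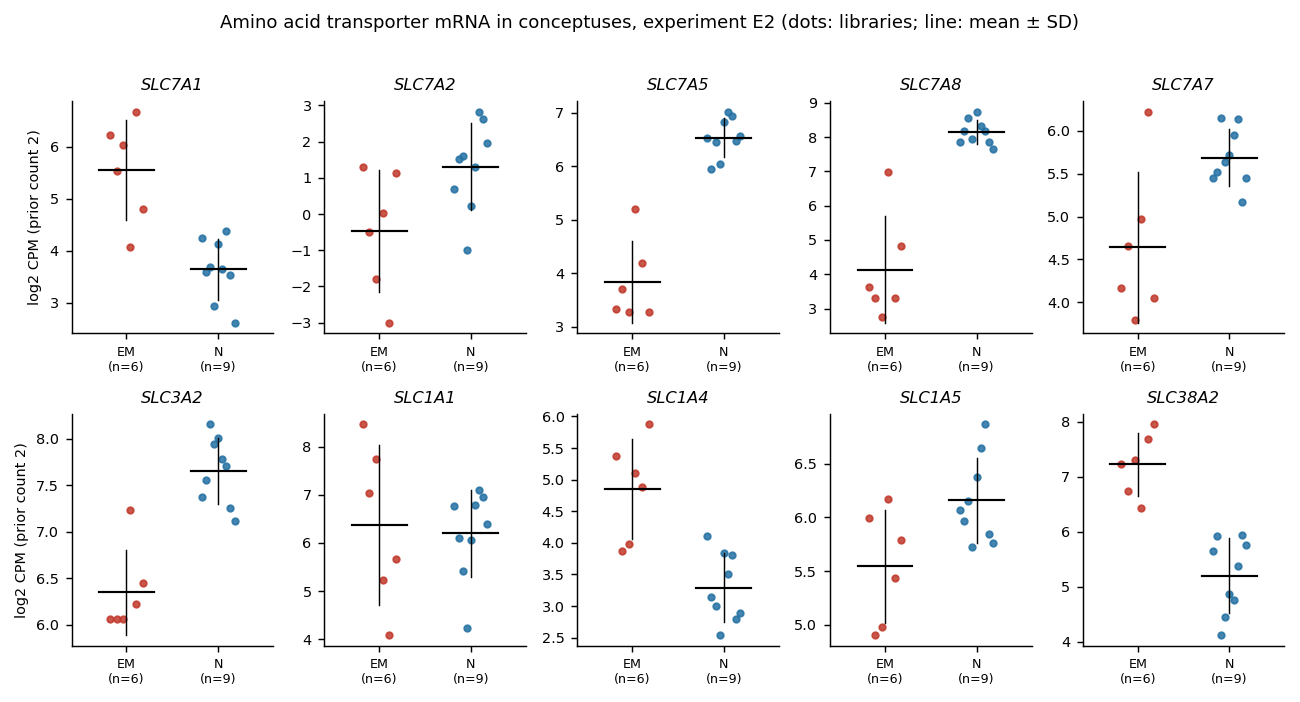
CPM of the 10 transporters on a log2 scale in each E2 conceptus library, EM (n = 6) left of N (n = 9), with dots for libraries and lines for the mean ± SD. SLC7A5 and SLC7A8 lay below all N libraries and SLC38A2 above all N libraries in every EM library, while SLC1A1 overlapped widely.

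Among the cationic carriers, SLC7A1 had 74.5, 45.9, 65.1, 16.7, 101.6 and 27.9 CPM in EM libraries S49, S51, S53, S55, S58 and S61, for a median of 55.5 CPM. In N its lowest, median and highest were 6.01, 12.4 and 20.7 CPM. The 5 EM libraries other than S55 lay above every N library, and S55 lay within the N range. The log2 fold change was 2.00 ± 0.35 (SE, adjusted p = 0.000135 from edgeR). SLC7A2, the other cationic carrier, was scarce, at 0 to 2.35 CPM in EM (median 0.742) and 0.373 to 6.95 CPM in N (median 2.74). The ranges overlapped and the difference did not pass the test (-1.62 ± 0.77, adjusted p = 0.0721), although DESeq2 placed it past the threshold with -1.57 and an adjusted p of 0.0466.

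SLC7A5, the LAT1 light chain, had 9.94, 12.99, 9.57, 36.8, 18.2 and 9.54 CPM in the EM libraries in the same order, against a lowest, median and highest of 61.97, 92.7 and 130 CPM in N. No EM library reached the lowest N library, and the log2 fold change was -2.59 ± 0.33 (adjusted p = 1.18e-05 from edgeR). SLC7A8, the LAT2 light chain, had 12.3, 9.86, 6.65, 126.3, 9.69 and 28.4 CPM in EM, against 203, 287 and 427 CPM as lowest, median and highest in N. The groups did not overlap, and S55 stood nearest to N. The log2 fold change was -3.18 ± 0.63 (adjusted p = 0.000362), the largest fall of the 10 genes, and without S55 it was -4.51 (adjusted p = 3.72e-07). SLC7A7, the y+LAT1 light chain, ranged from 13.8 to 74.3 CPM in EM with a median of 21.4, against 35.9 to 70.8 CPM in N with a median of 49.4. The EM library S58 was above every N library while 5 EM libraries were below all of them, and the call for SLC7A7 (-0.88 ± 0.33, adjusted p = 0.0276) was weak.

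The heavy chain SLC3A2 had 66.4, 66.5, 66.7, 150, 74.7 and 86.999 CPM in EM, against 138, 208 and 285 CPM as lowest, median and highest in N. S55 was the one EM library within the N range. The log2 fold change of SLC3A2 was -1.31 ± 0.25 (adjusted p = 0.000246), and without S55 it was -1.60 (adjusted p = 1.06e-05).

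The acidic carrier SLC1A1 had 353, 131, 215, 37.7, 16.9 and 50.5 CPM in the EM libraries, against 18.6, 83.8 and 137 CPM as lowest, median and highest in N. EM libraries lay both above and below the N range, and no difference passed the test (0.63 ± 0.54, adjusted p = 0.316). SLC1A4, the carrier of alanine, serine and cysteine, had a lowest, median and highest of 14.5, 31.9 and 58.7 CPM in EM and 5.69, 8.70 and 17.1 CPM in N. The groups overlapped through EM libraries S51 and S53, and SLC1A4 was higher in EM by 1.61 ± 0.33 (adjusted p = 0.000479). SLC1A5, the glutamine exchanger, had 29.8, 49.1 and 71.8 CPM in EM and 52.8, 67.1 and 116.7 CPM in N, with overlapping groups and a weak call (-0.63 ± 0.25, adjusted p = 0.0358).

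SLC38A2 had 151, 107.6, 159, 86.1, 207 and 249 CPM in EM, against 17.3, 41.5 and 61.6 CPM as lowest, median and highest in N. Every EM library exceeded every N library, and the log2 fold change was 1.95 ± 0.29 (adjusted p = 3.73e-05 from edgeR). The calls for SLC7A7 and SLC1A5 were the ones that processing could end. With RLE factors neither was called (adjusted p = 0.0551 for SLC7A7 and 0.0744 for SLC1A5), and each was lost when any of 11 libraries was left out, the log2 fold changes then lying at -0.54 to -0.76 for SLC7A7 and at -0.35 to -0.54 for SLC1A5. Without S49 and S58 together, a choice made after seeing the data, 7 of the 10 were called, beside 58.5% of all genes. SLC1A5 was not among them (-0.50, adjusted p = 0.162).

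The cell type markers moved in the same comparison. Summed leukocyte markers were 370 to 4023 CPM in EM and 17.7 to 71.02 CPM in N, with 19 of 20 called higher in EM. Epithelial markers of the endometrium were 6398 to 12555 CPM in EM and 936 to 2830 CPM in N, with 7 of 9 tested called higher. Stromal and endothelial markers were 110.6 to 1843 CPM in EM and 26.5 to 125.1 CPM in N, with 7 of 9 tested higher and 1 lower. Trophoblast markers were 1084 to 65908 CPM in EM and 115575 to 180385 CPM in N, with 12 of 14 lower and 1 higher. The highest EM sum was that of S55, followed by S61 at 17791 CPM. Luteal markers were 55.6 to 4900 CPM in EM and 473 to 1020 CPM in N, with 1 higher and 1 lower of 5 tested. Erythroid markers were 10.9 to 523 CPM in EM and 2.20 to 40.4 CPM in N, with 2 of 3 tested higher. HBA1 was at 0 in both groups and PAEP at 0 in EM. The part of these other cells in the transporter differences was not tested.

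**Figure D2:**
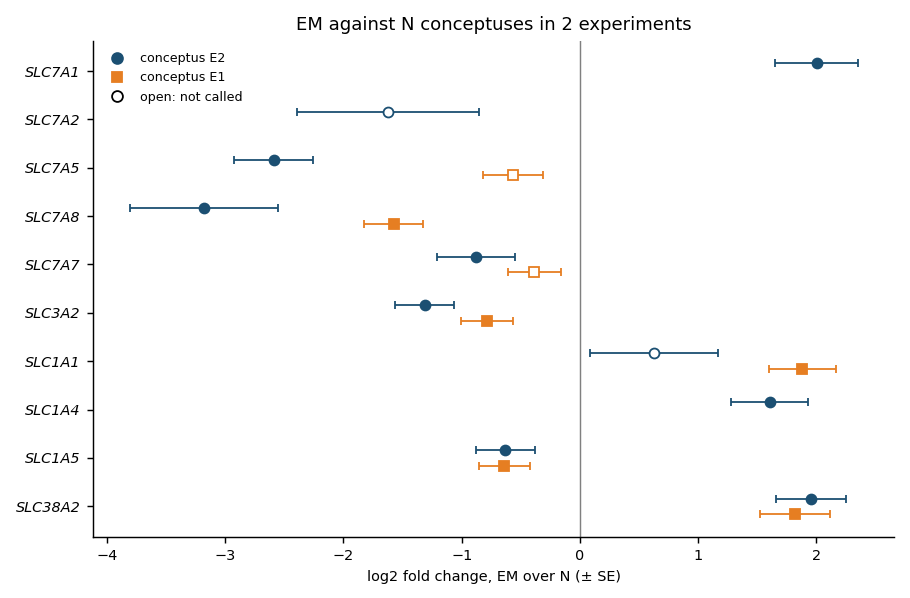
Log2 fold changes of EM over N for the transporters in the conceptuses of E2 and E1, with points for estimates (open where not called) and bars for ± 1 SE. In both experiments SLC7A8 and SLC3A2 lay below 0 and SLC38A2 above 0, and SLC1A1 was 0.63 in E2 and 1.88 in E1.

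In E1 conceptuses 5 of the 6 genes tested under their own symbol were called, 2 higher and 3 lower in EM, beside 47.1% of the 11211 genes tested. SLC7A1, SLC7A2 and SLC1A4 had too few counts to pass the filter. SLC7A1 had 17 counts in each of EM libraries S2 and S3 (4.17 and 3.47 CPM) and 0 in S4 and S5. In N it had 0 to 0.777 CPM. SLC1A4 had 2, 14, 1 and 0 counts in EM libraries S2, S3, S4 and S5 (0 to 4.23 CPM). Its N libraries had 0.0795 to 0.672 CPM. SLC7A8 had 66.3, 35.9, 50.7 and 35.9 CPM in EM libraries S2, S3, S4 and S5, the last pair resting on 12 and 2 counts, against 112.5, 153 and 216 CPM as lowest, median and highest in N. The groups did not overlap and the log2 fold change was -1.57 ± 0.25 (adjusted p = 0.000104 from edgeR).

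SLC1A1 had 492, 618, 300 and 288 CPM in the same EM libraries, against 59.8, 133 and 196 CPM in N. It was higher in EM without overlap (1.88 ± 0.28, adjusted p = 6.78e-05), which differs in size from the E2 value, although the difference between experiments was not tested. SLC38A2 had 140, 176, 21.1 and 71.9 CPM in EM, against 26.5, 38.7 and 46.8 CPM in N, so that S4, with 5 counts, lay below the N range. The log2 fold change of SLC38A2 was 1.82 ± 0.29 (adjusted p = 0.000128).

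SLC3A2 had 107.5, 73.5, 152 and 53.9 CPM in EM and 130, 185 and 224 CPM in N, with 1 EM library inside the N range (-0.79 ± 0.22, adjusted p = 0.00871 from edgeR). SLC1A5 had 37.1, 27.98, 42.3 and 17.97 CPM in EM and 40.8, 53.7 and 72.5 CPM in N (-0.64 ± 0.22, adjusted p = 0.0235). DESeq2 did not call SLC1A5 (-0.54, adjusted p = 0.0585). Without EM library S3 neither was called (SLC3A2 -0.62, adjusted p = 0.0606, and SLC1A5 -0.53, adjusted p = 0.153), and 3 genes in place of 5 passed. Without S4 and S5, 6 passed, beside 56.4% of the 12666 genes then tested.

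SLC7A7, with 4.23 to 53.9 CPM in EM and 28.9 to 38.3 CPM in N, was not called (-0.38 ± 0.23, adjusted p = 0.173). SLC7A5, on the row labelled LAT, had 40.5, 19.2, 38.04 and 35.9 CPM in EM and 37.2, 47.4 and 73.6 CPM in N. It did not pass the test (-0.57 ± 0.25, adjusted p = 0.0727), but did without EM library S2 (-0.99, adjusted p = 0.0170). SLC7A2 had 0 counts in the 4 EM libraries together, which allows up to 0.324 CPM (3 counts over the group, counting error only), and 0 to 0.397 CPM in N.

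Markers moved in E1 as well. Leukocyte markers summed to 710 to 1797 CPM in EM and 30.5 to 90.02 CPM in N (12 of 13 tested higher), epithelial markers to 1689 to 4934 CPM and 774 to 1325 CPM (4 of 6 higher, 1 lower), and stromal and endothelial markers to 507 to 1348 CPM and 20.8 to 70.3 CPM (8 of 9 higher). Trophoblast markers summed to 7054 to 26125 CPM in EM and 32515 to 56160 CPM in N (7 of 10 lower). Erythroid markers summed to 77.1 to 55092 CPM in EM, highest in S3, and 2.84 to 38.1 CPM in N, with both tested markers higher. Luteal markers summed to 115.2 to 278 CPM in EM and 202 to 584 CPM in N, with 1 of 4 lower, and LHCGR and OXT were at 0. Their part in the E1 differences was not tested.

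Only E1 lists exon lengths, so levels of different genes were compared there, per kb of exon. In N conceptuses SLC3A2 was highest at 89.9 CPM per kb, then SLC7A8 at 44.6, SLC1A1 at 36.005, SLC1A5 at 19.2, SLC7A7 at 16.5, SLC7A5 at 12.2 and SLC38A2 at 7.63 CPM per kb. SLC7A1, SLC7A2 and SLC1A4 were each at or below 0.215 CPM per kb. In EM conceptuses SLC1A1 led at 118.7 CPM per kb, SLC3A2 followed at 47.4 and SLC38A2 at 21.4, and SLC7A8 was at 13.3 CPM per kb. SLC7A1 and SLC1A4 were lower in E1 than in E2 in every tissue shared by the experiments (in N endometrium SLC7A1 averaged 6.98 CPM in E1 and 69.1 CPM in E2), but the tables were made with different builds and read types and the difference was not tested. On UMD3.1, the build of the E1 tables, SLC7A8 (chr10:21521555-21573888) and SLC7A7 (chr10:21832584-21864021) lie near each other, and SLC7A5 (chr18:13341371-13370494) and SLC1A5 (chr18:54302393-54313935) share a chromosome. SLC7A1 lies at chr12:31004652-31019183, SLC7A2 at chr27:18785638-18810610, SLC3A2 at chr29:41855871-41896760, SLC1A1 at chr8:40178394-40253322, SLC1A4 at chr11:63337655-63367589 and SLC38A2 at chr5:34028553-34042996.

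The ratio of SLC7A5 to SLC7A8 within a library does not depend on how libraries are scaled. On the log2 scale it averaged -0.31 ± 1.13 in EM and -1.61 ± 0.42 in N conceptuses of E2 (SD, n = 6 and 9), a difference of 1.31 (exact permutation test, two-sided, p = 0.0140, adjusted p = 0.0280 over 6 ratio tests). EM libraries S55 (-1.78) and S61 (-1.57) lay within the N range, and the call was lost without any one of EM libraries S49, S51, S53 or S58, with differences of 1.07 at the least, and without S49 and S58 together (1.00, adjusted p = 0.190). In E1 conceptuses the ratio averaged -0.50 ± 0.39 in EM and -1.69 ± 0.54 in N (SD, n = 4 and 8), a difference of 1.19 (exact permutation test, p = 0.00808, adjusted p = 0.0242). Without S4 and S5 the difference was 0.88, but the EM libraries left were too few for the adjusted test to pass whatever their values. The groups overlapped through N library S1, at -0.79. In both experiments the ratio was higher in EM, that is, SLC7A8 was lower relative to SLC7A5.

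**Figure D3:**
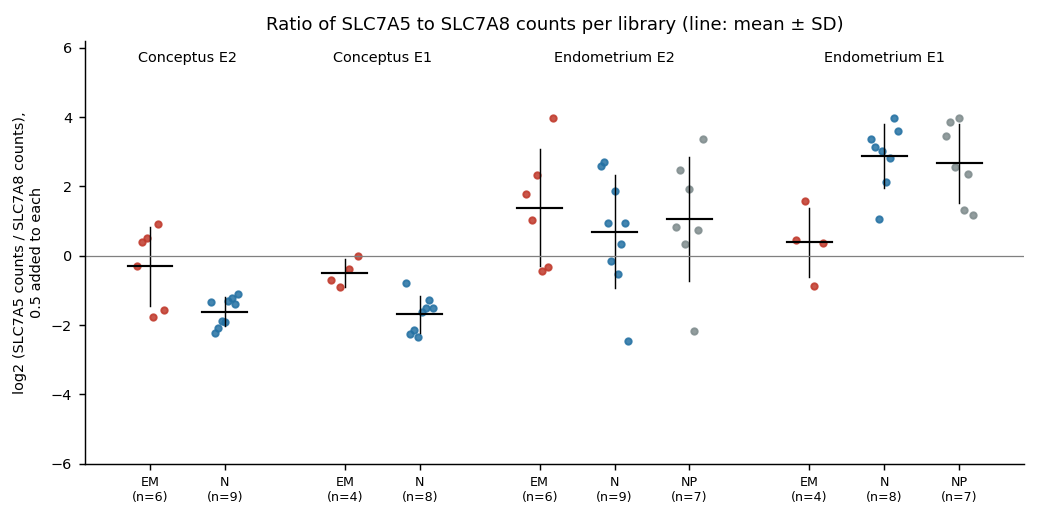
Log2 ratio of SLC7A5 to SLC7A8 counts in each conceptus and endometrium library, grouped as EM, N and NP, with dots for libraries and lines for the mean ± SD. In conceptuses the EM mean was higher (-0.31 against -1.61 in E2), and in E1 endometrium it was lower (0.38 against 2.88).

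Other genes of amino acid supply and sensing were followed in the same fits. Of 21 other amino acid transporters tested in E2 conceptuses, 6 were higher and 13 lower in EM, with a median log2 fold change of -1.06. SLC38A1, another sodium-coupled neutral carrier, was 5.58 ± 0.54 higher and the glycine carrier SLC6A9 4.81 ± 0.46 higher (adjusted p = 2.00e-06 and 1.80e-06 from edgeR). SLC7A6, the y+LAT2 light chain, was lower by -2.46 ± 0.32 and SLC38A9, the lysosomal arginine sensor, by -1.86 ± 0.23 (adjusted p = 1.12e-05 and 9.01e-06).

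Of 15 genes of arginine and polyamine metabolism tested, 3 were higher and 10 lower in EM (median -0.74). SRM (spermidine synthase, -3.04 ± 0.55), ASL (argininosuccinate lyase, -2.15 ± 0.34) and AMD1 (-1.29 ± 0.21), which makes the aminopropyl donor of polyamine synthesis, were lower, and SAT1, which starts polyamine breakdown, was higher (2.87 ± 0.29). Of 15 genes of the amino acid response, 6 were higher and 4 lower (median 0.52), with VLDLR at 6.04 ± 0.74, the serine synthesis enzyme PSAT1 at 3.37 ± 0.47 and the transcription factor CEBPB at 2.15 ± 0.32 among those higher and the leucine sensor SESN2 at -2.05 ± 0.29 among those lower. ATF3 (3.31 ± 0.73), PSPH (2.75 ± 0.55) and DDIT3 (1.56 ± 0.29) were higher as well. ASNS (-0.83 ± 0.25), TRIB3 (-1.56 ± 0.29) and SHMT2 (-1.10 ± 0.18) were lower, and ATF4 was not called (0.02 ± 0.20). These genes were named after their values were seen. Of 19 genes of nutrient sensing by mTORC1, 4 were higher and 10 lower (median -0.54). The Rag GTPases split, with RRAGB (3.28 ± 0.37) and RRAGD (2.34 ± 0.31) higher and RRAGC (-1.01 ± 0.20) and RRAGA (-0.54 ± 0.21, named after its value was seen) lower, and the S6 kinase gene RPS6KB1 was lower (-1.98 ± 0.26). With 67.1% of all genes called, these counts say little of the lists as such.

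In E1 conceptuses the same lists gave 3 higher and 6 lower of 13 other transporters, 1 and 3 of 10 arginine and polyamine genes, 4 and 1 of 14 response genes and 3 and 3 of 17 sensing genes, beside 47.1% of all genes called. VLDLR (6.68 ± 0.36), PSAT1 (2.76 ± 0.27), RRAGB (2.85 ± 0.46), SAT1 (1.83 ± 0.25) and RHEB, the GTPase that activates mTORC1 (0.87 ± 0.15), were higher in EM, and SLC7A4 (-1.45 ± 0.30) and the arginine synthesis enzyme ASS1 (-1.42 ± 0.27) lower. ATF3 (3.85 ± 0.38) and PSPH (2.74 ± 0.30) were higher as well and ASNS lower (-0.70 ± 0.16), all named after their values were seen. The peptide carrier SLC15A2 was called higher (2.05 ± 0.51, adjusted p = 0.00431 from edgeR) but stood at -0.56 without EM library S3.

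Endometrium was compared next, since it lines the lumen from which the conceptus is fed. In E2 none of the 10 genes was called between EM and N, between EM and NP or between N and NP by edgeR or by DESeq2. The background was 0% of 19038 genes for EM against N (1516 at an unadjusted p under 0.05, and 33 called by DESeq2), 0.247% for EM against NP and 1.41% for N against NP. The widest ranges were those of SLC1A1, at 76.8, 345 and 595 CPM as lowest, median and highest in EM, 41.9, 323 and 697 CPM in N and 18.2, 368 and 578 CPM in NP. SLC38A2 was narrower, at 172 to 235 CPM in EM, 119.4 to 296 CPM in N and 145 to 381 CPM in NP. For SLC3A2 the log2 fold change of EM over N was -0.30 ± 0.14 (adjusted p = 0.618).

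In E1 endometrium SLC7A8 was the one call among the 9 genes for EM against N, beside 1.38% of 14084 genes. It had 16.1, 12.4, 30.01 and 32.02 CPM in the EM libraries S14, S15, S16 and S17, against 3.47, 8.78 and 13.8 CPM as lowest, median and highest in N and 6.10, 10.2 and 14.6 CPM in NP. S15 lay within the N and NP ranges and the others above both. The log2 fold change over N was 1.38 ± 0.32 (adjusted p = 0.0382 from edgeR). Leaving out EM library S16 or S17, or N library S13, S21, S22 or S24, ended the call, with log2 fold changes of 1.17 to 1.38 and adjusted p of 0.0535 to 0.209, as did fitting EM and N alone (adjusted p = 0.0852). In E2 endometrium the same difference was -0.04 ± 0.56 (adjusted p = 0.997), and the difference between experiments was not tested.

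Against NP, 0 of the 9 genes was called in E1 endometrium by edgeR for EM (0.0426% of genes called, 1295 at an unadjusted p under 0.05) or for N (2.52% of genes called, 2295 at an unadjusted p under 0.05). SLC7A8 stood at 1.27 ± 0.33 in EM over NP (adjusted p = 0.225), and DESeq2 called it (1.26, adjusted p = 0.0411). SLC1A1 had 1586, 752, 950 and 962 CPM in EM, against 156, 588 and 987 CPM as lowest, median and highest in N and 72.7, 321 and 1018 CPM in NP. It was not called (0.94 ± 0.51 over N, adjusted p = 0.462). SLC7A5, on the row labelled LAT, had 22.2, 37.04, 16.4 and 41.4 CPM in EM and 28.9, 61.4 and 103.5 CPM in N, and was not called (-1.17 ± 0.46, adjusted p = 0.251).

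**Figure D4:**
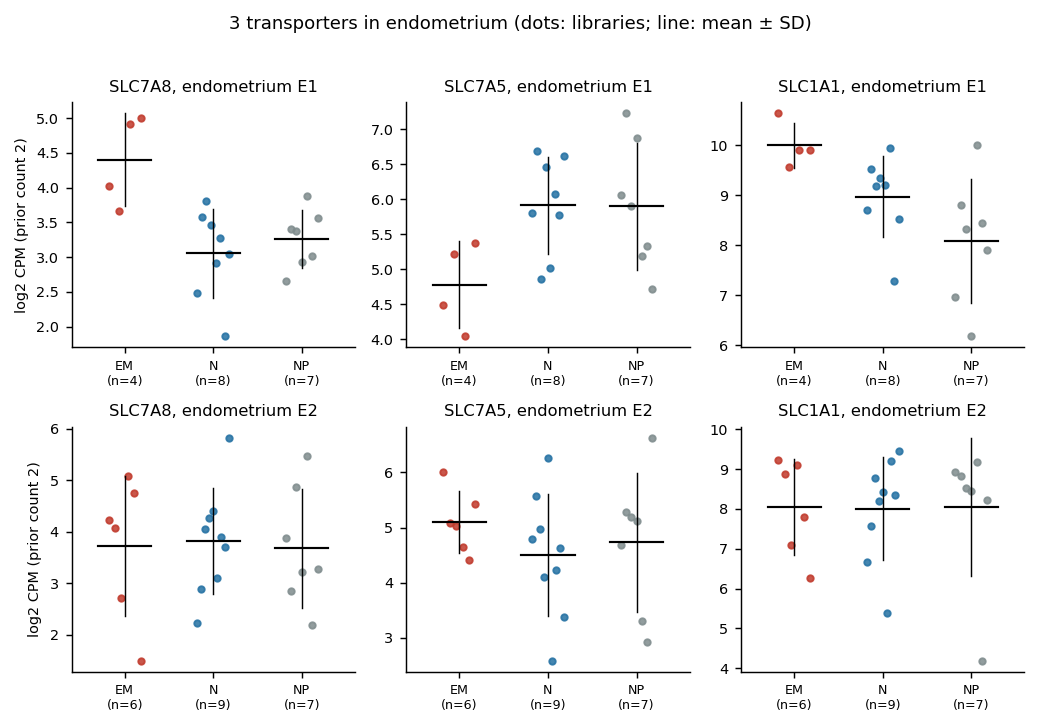
Log2 CPM of SLC7A8, SLC7A5 and SLC1A1 in endometrium of E1 (top) and E2 (bottom), for EM, N and NP, with dots for libraries and lines for the mean ± SD. In E1 3 of 4 EM libraries exceeded all N and NP libraries for SLC7A8, and in E2 the groups of all 3 genes overlapped.

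The ratio of SLC7A5 to SLC7A8 in E1 endometrium averaged 0.38 ± 1.00 in EM and 2.88 ± 0.92 in N (SD, n = 4 and 8), a difference of -2.50 that passed the exact permutation test (p = 0.00808, adjusted p = 0.0242). The groups overlapped through N library S19, at 1.06. The ratio of N did not differ detectably from NP (0.22, exact permutation test, adjusted p = 0.678). In E2 the difference between EM and N was 0.70 (adjusted p = 0.665) and between N and NP -0.37 (adjusted p = 0.678). Marker sums in E1 endometrium were 151 to 207 CPM in EM and 128.2 to 722 CPM in N for leukocytes and 878 to 1785 CPM and 438 to 1531 CPM for epithelium, with no leukocyte, epithelial, stromal or luteal marker called. Of the trophoblast markers 1 of 6 tested was higher, at summed levels of 261 to 371 CPM in EM and 188 to 316 CPM in N, and 1 erythroid marker was higher (0.482 to 293 CPM in EM and 0.340 to 1.26 CPM in N). SMS, spermine synthase (1.43 ± 0.32, adjusted p = 0.0355), and RRAGB (0.62 ± 0.14, adjusted p = 0.0402) were the genes of the other lists called there, and none of those lists had a call in the other comparisons between groups of endometrium, CL or PBMC.

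In E2 the difference of EM from N was compared between conceptus and endometrium. The test, EM minus N in conceptus minus EM minus N in endometrium, called 7 of the 10 genes, beside 58.5% of 19677 genes. With RLE factors 5 were called, beside 57.4% of all genes. SLC7A8 (-3.40 ± 0.82, adjusted p = 0.000916 from edgeR), SLC7A5 (-3.21 ± 0.57, adjusted p = 3.21e-05), SLC3A2 (-1.26 ± 0.29, adjusted p = 0.000521), SLC7A7 (-1.09 ± 0.43, adjusted p = 0.0286) and SLC1A5 (-1.08 ± 0.39, adjusted p = 0.0194) were below 0. SLC38A2 (1.85 ± 0.36, adjusted p = 9.69e-05) and SLC7A1 (1.33 ± 0.50, adjusted p = 0.0224) were above 0. Calls for SLC7A7 and SLC1A5 were lost in 19 and 12 alternatives, RLE factors among them (adjusted p = 0.107 and 0.0835). That for SLC7A1 was lost without EM conceptus S58 (1.05, adjusted p = 0.0653) and without S49 and S58 together (0.82, adjusted p = 0.167). SLC7A2, SLC1A1 and SLC1A4 were not called (adjusted p = 0.239, 0.738 and 0.124), though SLC1A4 was by DESeq2 (1.36, adjusted p = 0.0440) and without EM endometrium S71 (1.45, adjusted p = 0.0491). The labels do not say whether the tissues came from the same cows, and the fits across tissues treat libraries as independent.

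In CL and PBMC none of the genes was called by edgeR or DESeq2 in any of the 9 comparisons. In CL the background was 0.00568% (1 of 17597 genes) for EM against N, with 1201 at an unadjusted p under 0.05 and 10 called by DESeq2. It was 0% for EM against NP (784 unadjusted, 4 by DESeq2) and 0% for N against NP (390 unadjusted, 7 by DESeq2). In PBMC of E2, where SLC7A2, SLC7A8 and SLC1A1 were too low to test, it was 0% of 16269 genes in each comparison (342, 278 and 740 unadjusted and 0, 0 and 18 by DESeq2 for EM against N, EM against NP and N against NP). In PBMC of E1 it was 0% of 11501 genes in each (758, 374 and 603 unadjusted and 6, 0 and 0 by DESeq2). The largest of these differences in CL was that of SLC1A1 in EM over NP, at -0.81 ± 1.48, where the levels were 0.0626, 0.793 and 11.2 CPM as lowest, median and highest in EM and 0, 0.417 and 32.5 CPM in NP. In PBMC of E1 SLC7A7 had 44.9, 57.2 and 64.001 CPM in EM and 16.3, 27.3 and 52.3 CPM in N (0.82 ± 0.32, adjusted p = 0.642).

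Levels were then compared between tissues. In N libraries of E2 all 10 genes differed between conceptus and endometrium, 5 higher and 5 lower, beside 85.6% of 19378 genes. The count was 6 higher and 4 lower against CL, beside 81.7%, and 5 higher and 3 lower against PBMC, beside 84.9%. Between endometrium and CL 2 were higher and 4 lower (58.5% of all genes), between endometrium and PBMC 4 higher and 6 lower (73% of all genes), and between CL and PBMC 4 higher and 5 lower (76.1% of all genes). Scaling matters here, since with library totals alone the median of all genes moved by -1.03 for conceptus against endometrium, -0.70 against CL and -0.88 against PBMC, and by 0.33 at most between maternal tissues. With those totals the share of calls that were higher fell to 23.3% (40.9% with TMM factors) for conceptus against endometrium, 28% (42.9%) against CL and 36.3% (51.8%) against PBMC, and reached 70.5% (52.4%) for endometrium against CL.

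**Figure D5:**
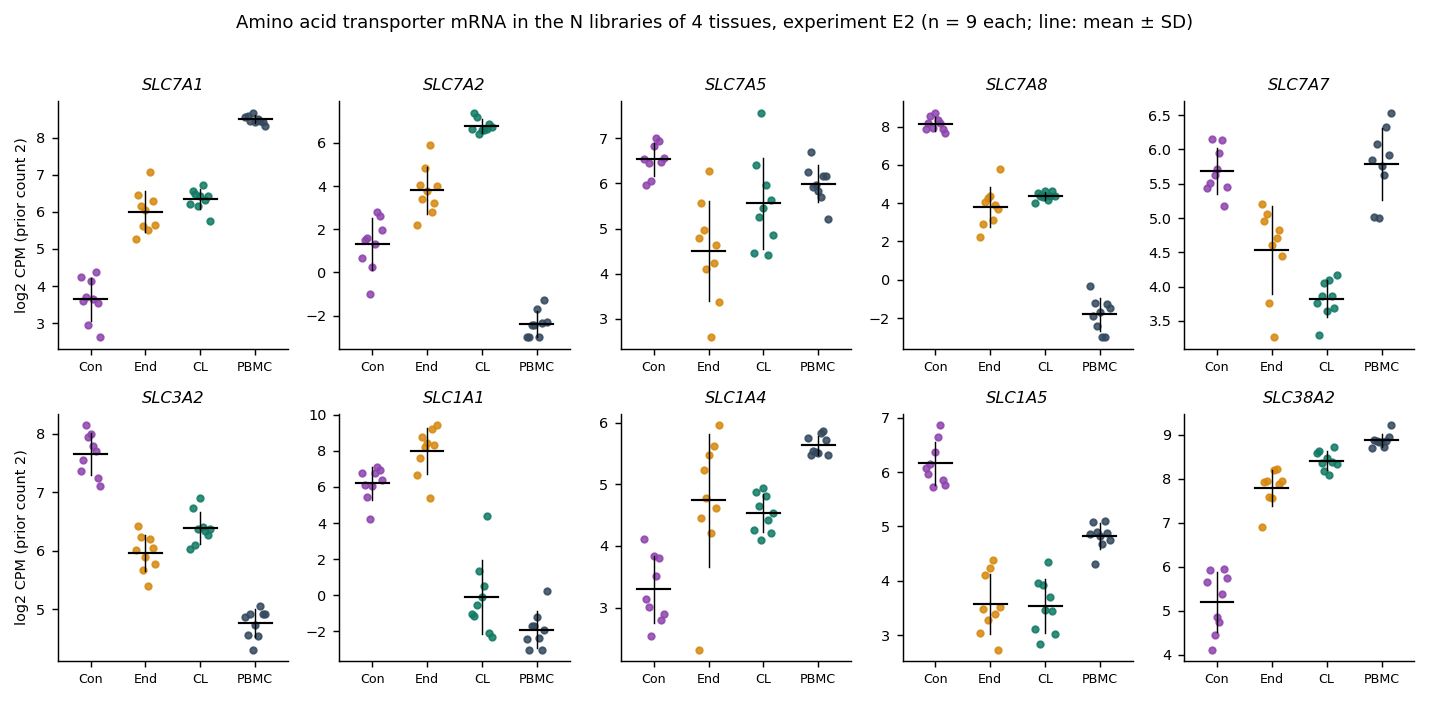
Log2 CPM of the 10 transporters in N libraries of E2 for conceptus (Con), endometrium (End), CL and PBMC, 9 libraries each, with dots for libraries and lines for the mean ± SD. SLC7A8, SLC3A2 and SLC1A5 were highest in conceptus, SLC7A1 and SLC38A2 in PBMC, SLC7A2 in CL and SLC1A1 in endometrium.

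SLC7A8 averaged 291 ± 73.6 CPM in conceptus, 17.8 ± 15.4 in endometrium, 21.02 ± 2.99 in CL and 0.210 ± 0.206 in PBMC (SD, n = 9 each). Conceptus exceeded endometrium by 4.24 ± 0.35 and CL by 3.98 ± 0.35 (adjusted p = 2.08e-13 and 9.36e-13 from edgeR), while endometrium and CL did not differ detectably (-0.27 ± 0.31, adjusted p = 0.478), except without N endometrium S85 (-0.73, adjusted p = 0.0174). The heavy chain SLC3A2 averaged 207 ± 50.1 CPM in conceptus, 63.4 ± 13.5 in endometrium, 85.1 ± 17.2 in CL and 27.2 ± 4.33 in PBMC. Every conceptus library exceeded every maternal library, and the order from conceptus through CL and endometrium to PBMC held in each neighbouring test except that CL over endometrium was lost with library totals alone (adjusted p = 0.477).

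SLC7A5 was the most even of the light chains, at 95.2 ± 23.2 CPM in conceptus, 28.8 ± 21.8 in endometrium, 59.99 ± 52.9 in CL and 65.7 ± 18.5 in PBMC. Conceptus exceeded endometrium (1.95 ± 0.37, adjusted p = 1.11e-05), did not differ detectably from PBMC (0.69 ± 0.36, adjusted p = 0.0716, but 0.79 and 0.0488 without N PBMC S91) and differed from CL (0.85 ± 0.36, adjusted p = 0.0292) only in part of the alternatives, the call being lost in 11 of 22 with adjusted p of 0.0502 to 0.813. SLC7A7 averaged 52.5 ± 12.3 CPM in conceptus, 24.8 ± 8.92 in endometrium, 14.3 ± 2.57 in CL and 58.4 ± 20.1 in PBMC. Conceptus and PBMC did not differ detectably (0.00 ± 0.21, adjusted p = 0.991), though with library totals alone conceptus was lower (-0.91, adjusted p = 9.35e-05).

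SLC7A1 averaged 13.3 ± 4.94 CPM in conceptus, 69.1 ± 29.8 in endometrium, 82.4 ± 14.7 in CL and 362 ± 26.96 in PBMC. Conceptus was the lowest (-2.16 ± 0.20 against endometrium, adjusted p = 5.65e-12 from edgeR) and PBMC the highest, and endometrium and CL did not differ detectably (-0.29 ± 0.19, adjusted p = 0.201), except without N endometrium S82 (-0.48, adjusted p = 0.0215). SLC7A2 averaged 3.08 ± 2.21 CPM in conceptus, 18.4 ± 17.1 in endometrium, 113.6 ± 27.97 in CL and 0.0829 ± 0.0956 in PBMC. All 4 tissues differed from one another in SLC7A2, with CL above endometrium (endometrium minus CL -2.66 ± 0.40, adjusted p = 6.14e-07) and PBMC last.

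SLC1A1 averaged 84.4 ± 38.9 CPM in conceptus, 336 ± 216 in endometrium, 2.997 ± 6.79 in CL and 0.221 ± 0.322 in PBMC. Endometrium exceeded conceptus (conceptus minus endometrium -1.79 ± 0.64, adjusted p = 0.00997), and CL values were near 0 except in 1 library at 21.001 CPM. SLC1A4 averaged 10.3 ± 3.97 CPM in conceptus, 32.2 ± 17.7 in endometrium, 23.5 ± 4.93 in CL and 49.8 ± 5.62 in PBMC, with endometrium and CL not detectably different (0.42 ± 0.26, adjusted p = 0.163), except with library totals alone (0.79, adjusted p = 0.0127) and without N endometrium S72 (0.57, adjusted p = 0.0209). SLC1A5 averaged 73.8 ± 21.98 CPM in conceptus, 12.6 ± 4.94 in endometrium, 12.1 ± 4.27 in CL and 28.4 ± 4.32 in PBMC, and every conceptus library lay above every maternal library. SLC38A2 averaged 40.3 ± 17.1 CPM in conceptus, 229 ± 55.8 in endometrium, 343 ± 48.96 in CL and 470 ± 52.9 in PBMC, so conceptus was the lowest (-2.30 ± 0.19 against endometrium, adjusted p = 1.88e-13).

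SLC38A2, SLC7A1 and SLC1A4, the genes higher in EM than in N conceptuses, were thus lower in N conceptus than in each maternal tissue, and SLC7A8, SLC3A2 and SLC1A5, lower in EM, were higher in N conceptus than in each maternal tissue. The other 2 genes lower in EM, SLC7A5 and SLC7A7, were not called between N conceptus and PBMC. These comparisons share the N conceptus libraries, so each is a description of the same samples. In EM conceptuses SLC38A2 averaged 160 CPM, below the 229 CPM of N endometrium, but the ranges overlapped (86.1 to 249 and 119.4 to 296 CPM). The ranges of SLC7A1 (16.7 to 101.6 and 38.2 to 135 CPM) and SLC1A4 (14.5 to 58.7 and 4.86 to 62.4 CPM) overlapped as well. These levels were not tested against each other.

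In E1, N conceptus and N endometrium differed in 8 of the 9 genes, 4 higher and 4 lower in conceptus, beside 87% of 13079 genes, and SLC7A2 was not tested. SLC7A8 (4.37 ± 0.25), SLC1A5 (1.82 ± 0.28) and SLC3A2 (1.26 ± 0.12) were higher in conceptus, as was SLC7A7 (0.57 ± 0.14, adjusted p = 0.000839), which turned to -0.31 with library totals alone (adjusted p = 0.0718, with the median of all genes moved by -0.86 and the share of calls that were higher at 27.6% in place of 45.1%). SLC7A1 (-3.81 ± 0.39), SLC1A4 (-3.16 ± 0.45), SLC38A2 (-2.64 ± 0.22) and SLC1A1 (-1.93 ± 0.32) were lower. SLC7A5, on the row labelled LAT, was not called in E1 (-0.24 ± 0.24, adjusted p = 0.360), against 1.95 ± 0.37 in E2, and with library totals alone was lower in conceptus (-1.14, adjusted p = 0.000720).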

How the data were processed

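Of 129 samples, 127 were mapped to tissue, experiment and group from their labels. The other 2 carry conflicting tissue labels, so their 2 columns were left out. One N endometrium library of E2 is known only by its group. The authors deposited gene tables of unnormalised read counts. The authors prepared libraries with a stranded TruSeq mRNA kit and aligned the E2 conceptus reads to ARS-UCD1.2. Per the labels, E1 conceptus and endometrium used UMD3.1, the remaining E2 tissues ARS-UCD1.2, and no build is named for E1 PBMC. The aligner, counter and strand setting are not given in the sources used here. The deposited exon lengths of E1 are a further unit, other than counts, in bp.

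Counts were filtered with filterByExpr at a minimum count of 10, scaled with TMM factors and tested in edgeR 4.0.16 (R 4.3.3) with the quasi-likelihood test. Conceptus fits held EM and N, maternal fits EM, N and NP, and tissue fits the N libraries. The SE is the size of the log2 fold change divided by the square root of F. Printed CPM use TMM factors over all libraries of an experiment, and plots use log2 CPM with a prior count of 2. The SLC7A5 to SLC7A8 ratio added 0.5 counts (5 in an alternative) and was compared by exact permutation tests in scipy 1.17.1. DESeq2 1.42.0, RLE factors, no filter, library totals alone, the 2 groups alone and leaving out each library were alternatives, and leaving out E2 EM conceptuses S49 and S58 together was added after seeing the data. Scripts were tested on simulated data. No pair of replicates differed as little as sampling noise (smallest chi-square per degree of freedom 3.89). No source used here states that E1 libraries came from separate cows, so their p-values may measure technical spread only.

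Transporters, lists and markers were chosen with earlier results of these data known. All 10 transporters were named in each comparison, with up to 4 genes of smallest p per other list in E2 conceptuses and up to 2 in other comparisons of groups. No sequences are shown. Counts of overlapping genes could be shared. The 3 genes most alike each transporter were named, except 1 that is not reported here.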

Additional observations from a re-analysis of the deposited data

Results flagged for a closer look

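In 168 groups of 4 to 10 libraries, 1 library lay farther from the others than Dixon's 95% limit in 17 cases, and chance gives about 1 in 20. In conceptuses these were SLC3A2 in E2 EM library S55 (150.2 CPM, the next at 87 CPM) and SLC7A5 in E1 EM library S3 (19.2 CPM). In E2 endometrium NP library S69 stood apart for SLC1A1 (18.2 CPM, the next at 300.2 CPM), SLC1A5 (30.85 CPM) and SLC38A2 (381.1 CPM), and N library S72 for SLC1A4 (4.863 CPM) and SLC38A2 (119.4 CPM). In E1 endometrium SLC7A7 was at 14.52 CPM in N library S23. In CL the cases were SLC7A7 in EM library S112 (43.67 CPM, the next at 13.71 CPM), SLC1A1 in NP library S123 (32.53 CPM) and SLC1A5 in NP library S109 (38.93 CPM), the library with few luteal transcripts. In PBMC, E1 NP library S47 stood apart for SLC7A1 (3.568 CPM), SLC7A5 (28.55 CPM), SLC3A2 (24.98 CPM), SLC7A8 (0 CPM) and SLC1A4 (0 CPM), each resting on 0 to 8 counts, and E2 N library S107 for SLC38A2 (596.5 CPM).

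The difference of EM from N in E2 was called as differing between conceptus and endometrium for 7 transporters, beside 58.5% of 19677 genes. On the log2 scale the values were 1.334 for SLC7A1, -3.21 for SLC7A5, -1.094 for SLC7A7, -3.4 for SLC7A8, -1.264 for SLC3A2, -1.075 for SLC1A5 and 1.848 for SLC38A2.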

How the results depend on the processing

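No paired analysis was possible because the labels and methods used here do not tie tissues to individual cows. Of the counts and ratios that answer a comparison, 559 alternative values were classed as unchanged. For a ratio this meant the same side of the threshold, and for a count of calls a value equal or close to the main one. Many of these values came from group comparisons in endometrium, CL or PBMC whose 0 calls stayed at 0, or from ratios that were not called in the main test. Counts so classed could still move. In E2 conceptuses 8 became 6 with RLE factors (66.4% of all genes called) and without the filter (52.5%). In E1 conceptuses 5 became 4 with DESeq2 (41%) and 7 without the filter (46.6%). The exceptions to that class follow. Of the E1 conceptus transporters called (5), 3 to 5 remained when 1 library was left out, the lowest without EM library S3. The E1 endometrium call between EM and N (1) became 0 with the 2 groups alone and 0 to 1 with 1 library left out, and DESeq2 made 1 call there between EM and NP in place of 0. The ratio difference in E2 conceptuses was 1.07 to 1.602 with 1 library left out and 1.00 without S49 and S58 (chosen after seeing the data), and that in E1 conceptuses 1.02 to 1.32, and 0.88 without S4 and S5. In that last setting too few EM libraries were left for the ratio test to pass. With library totals alone SLC7A7 moved from no detectable difference to -0.91 for conceptus against PBMC in E2. Its direction turned for conceptus against endometrium in E1 (-0.31 with library totals alone). Direction turned also for SLC15A2 in E1 conceptuses (-0.56 without EM library S3, the lowest of its values with 1 library left out, and 2.58 at the highest). The cause was not tested. Over all genes DESeq2 called more in endometrium: 253 in place of 47 (EM against NP) and 517 in place of 268 (N against NP) in E2, and 595 in place of 195 (EM against N), 0.817% in place of 0.0426% of genes (EM against NP) and 739 in place of 355 (N against NP) in E1, where the share higher of the last moved to 70.2% from 84.8%. With the 2 groups alone EM against NP in E2 fell to 0 and EM against N in E1 to 25. RLE factors moved the median of all genes by 0.10 in E2 and 0.11 in E1 conceptuses and by 0.29 in the test between conceptus and endometrium, where 5 transporters in place of 7 were called. SLC7A1, SLC7A2 and SLC1A4 had too few counts to pass the filter in E1 conceptuses and entered the test only without it. Depth was lowest in the E1 EM conceptuses S4 and S5.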

Other observations

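Over the means of the 11 groups of E2, the genes whose log2 CPM followed a transporter most closely, among 15363 genes, were named by Pearson's r (in parentheses) as a description, since group means share tissues and libraries. For SLC7A1 they were VPS13C (0.996), CNOT6 (0.996) and ZBTB1 (0.995). ATP2C1 (0.998), CYTH3 (0.997) and FAM198B (0.996) followed SLC7A2. For SLC7A5 they were PPP3R1 (0.981), CBX5 (0.974) and AGPAT4 (0.969). WDR59 (0.986), SHLD1 (0.980) and DOK1 (0.975) followed SLC7A7. Among those for SLC7A8 were FAM169A (0.995) and SHF (0.994). ACBD3 (0.994), ENSA (0.991) and GDPD5 (0.990) followed SLC3A2. For SLC1A1 they were UGT1A1 (0.995), SALL1 (0.994) and FOXA2 (0.994). C10H15orf65 (0.990), BACH1 (0.989) and ATG2A (0.987) followed SLC1A4. For SLC1A5 they were SDHAF1 (0.996), BRMS1 (0.987) and KTI12 (0.986). RASGRP3 (0.997), ETNK1 (0.996) and ARHGAP24 (0.995) followed SLC38A2. Between transporters the same measure was 0.97 for SLC7A8 with SLC3A2, 0.90 for SLC7A1 with SLC38A2, -0.97 for SLC7A8 with SLC7A1 and -0.23 for SLC7A8 with SLC7A5.

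In E2 endometrium the SLC7A5 to SLC7A8 log2 ratio spanned -0.44 to 3.97 in EM, -2.45 to 2.69 in N and -2.17 to 3.36 in NP libraries. The highest EM value belonged to the library labelled S83, which had 2988 CPM of leukocyte markers, and the part of those cells was not tested.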
